A study of Mus musculus with 12 samples.

Results

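The 9 genes followed here encode enzymes of amino acid breakdown other than aminotransferases, and their transcripts were measured in cultured primary mouse hepatocytes. They are Tdo2, Kynu and Haao of tryptophan catabolism, Aass of lysine catabolism, Hpd, Hgd and Fah of tyrosine catabolism, Sds of serine catabolism and Hal of histidine catabolism. They were taken by gene symbol, and all 9 were found among the 36144 genes of the deposited table. The hepatocytes were from a wild-type C57/Bl6J mouse, were obtained by collagenase digestion, and were kept 16 h overnight in medium without serum. Poly-A RNA was sequenced from 12 samples, with 3 samples to each of 4 groups. Mock cells received none of the agents. FD cells received 10 µM forskolin, which raises cAMP, together with 1 µM dexamethasone, a synthetic glucocorticoid, for the 5 h before lysis, a mimic of the hormones of fasting. FDI cells received the same after a 1 h pre-treatment with 100 nM insulin, and FDMn cells received the same after the 16 h overnight with 6 µM MnCl2. The labels name a single mouse and do not say that replicates were separate cell preparations, so the p-values reflect only how much these samples vary, and that variation may be technical. No group received insulin or manganese without FD.

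The liver is the main site where aromatic amino acids, lysine, serine and histidine are degraded. Their carbon can enter glucose or ketone body formation and their nitrogen the urea cycle, and several of the enzymes are known to be induced by fasting, glucagon or glucocorticoids. Tdo2, tryptophan dioxygenase, opens the indole ring and controls entry into the kynurenine pathway, in which kynureninase (Kynu) and hydroxyanthranilate dioxygenase (Haao) act further down toward NAD precursors. Aass, a bifunctional enzyme, starts lysine breakdown in mitochondria. Hpd, Hgd and Fah act in that order on the product that tyrosine aminotransferase makes, Fah last, giving fumarate and acetoacetate. Serine dehydratase (Sds) turns serine into pyruvate, and histidine ammonia-lyase (Hal) turns histidine into urocanate.

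The values are TPM, a transcript abundance unit in which values are scaled for transcript length and to a fixed total of 1000000 per library. The number of reads behind them is unknown. Between 10900 and 11161 genes per library were at 1 TPM or more, and replicates of a group correlated across genes at r from 0.981 to 0.991 (genes are not independent replicates). All 10 hepatocyte markers were detected, with Alb at up to 32589 TPM, and their summed level ranged over the libraries from 39925 to 42294 TPM (Mock), 41161 to 50969 (FD), 40869 to 41286 (FDI) and 47088 to 47665 (FDMn). The sum was mostly Alb and Trf, and single markers moved more. Cps1 averaged 3.76 TPM in Mock, 207 in FD, 34.8 in FDI and 79.7 in FDMn, and Hnf4a 52.1, 205, 178 and 184. Apob averaged 169 TPM in both Mock and FD. Of 10 Kupffer cell and macrophage markers 5 passed the filter used for testing, but the defining Adgre1, Clec4f and Vsig4 stayed under 1 TPM in every library. The sum of this list was 336 to 346 TPM (Mock), 320 to 387 (FD), 308 to 384 (FDI) and 766 to 851 (FDMn), nearly all of it Cd68. Of 7 cholangiocyte markers 3 passed, with Epcam and Krt7 under 1 TPM, and their sum was 732 to 803 TPM in FD, 762 to 809 in FDI, 1082 to 1126 in Mock and 1412 to 1606 in FDMn. Of the 3 that passed, Spp1 alone was higher with manganese than in Mock (889 TPM in Mock, 681 in FD and 1418 in FDMn on average). Cldn4 was at 176 TPM in Mock, 61.3 in FD and 51.7 in FDMn. Sox9 was at 34.9 TPM in Mock, 17.0 in FD and 25.2 in FDMn, so it was higher with manganese than in FD. Stellate and fibroblast markers (4 of 10 passed, with Lrat, Pdgfrb and Des under 1 TPM) summed to 53.5 to 58.2 TPM (Mock), 40.8 to 42.1 (FD), 43.4 to 53.9 (FDI) and 19.5 to 20.0 (FDMn). Endothelial markers (7 of 10 passed) summed to 28.5 to 31.0 TPM (Mock), 26.7 to 34.5 (FD), 26.1 to 30.7 (FDI) and 34.6 to 36.7 (FDMn). None of 7 lymphocyte markers passed the filter, and Nkg7 was listed at 0 throughout. The part of other cells in the results below was not tested.

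The 9 genes differed widely in level. In Mock cells Fah was highest at 43.8 ± 4.11 TPM (SD, n = 3 here and throughout), followed by Hpd at 24.3 ± 3.33, Kynu at 23.3 ± 1.40 and Tdo2 at 19.8 ± 3.51 TPM. Haao at 9.41 ± 1.82, Hgd at 7.12 ± 1.02, Aass at 6.60 ± 0.776, Hal at 2.06 ± 0.810 and Sds at 0.708 ± 0.0968 TPM were lower. With FD this order changed, and Aass (169 ± 9.17 TPM) and Tdo2 (100.5 ± 8.95 TPM) stood above Fah (65.0 ± 1.48 TPM). Together the 9 genes made up 126 to 145 TPM (Mock), 422 to 455 (FD), 257 to 275 (FDI) and 303 to 319 (FDMn) per library. Aass and Tdo2 carried most of that difference.

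**Figure D1:**
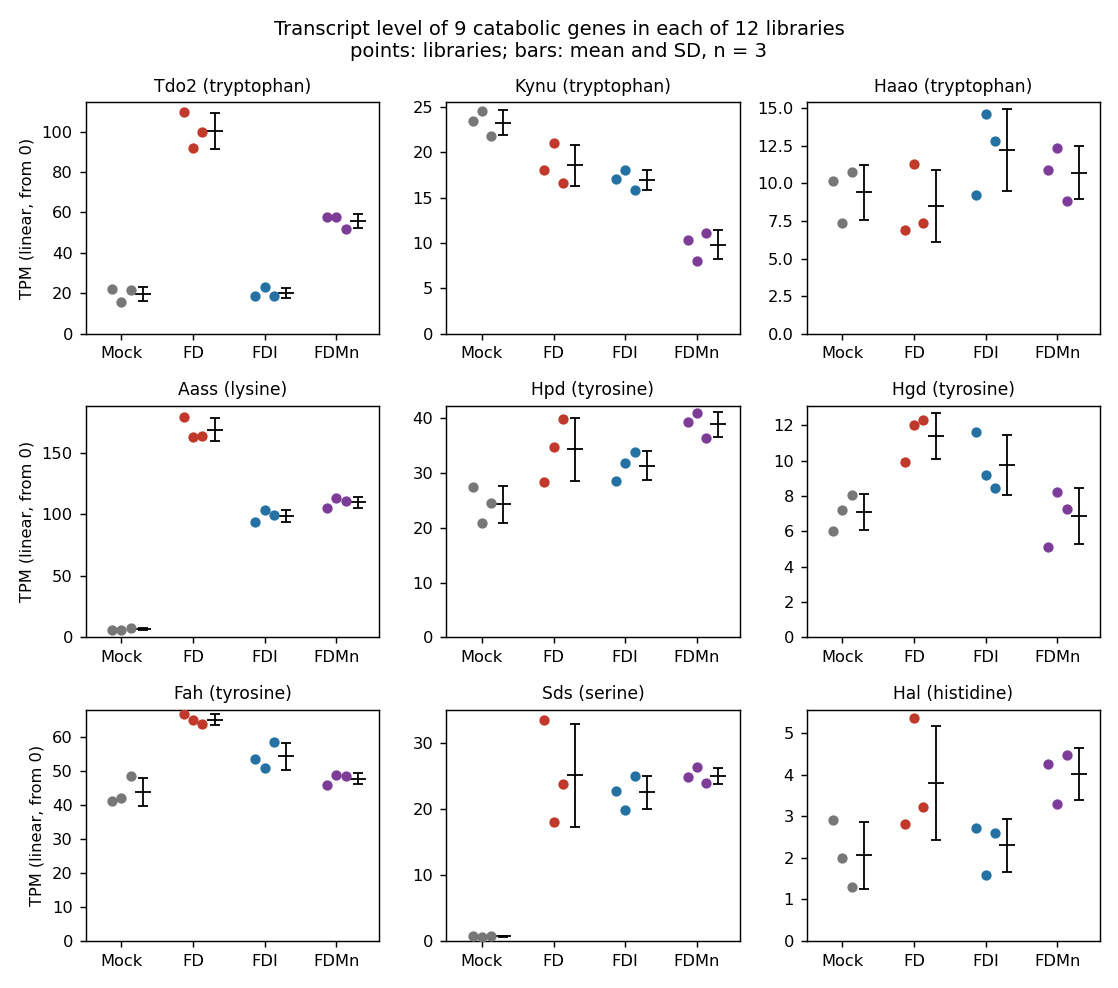
Transcript level of each of the 9 genes (TPM on a linear axis from 0) in the 12 libraries by group, with points for single libraries and bars for the mean and SD of 3. Tdo2 with insulin lies at the Mock level, Aass and Sds remain far above Mock in all 3 FD-treated groups, and Kynu is lowest with manganese.

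The genes were tested on log2(TPM + 1) with limma over the 11544 genes that reached 1 TPM in at least 3 libraries, and a call means a Benjamini-Hochberg adjusted p under 0.05 over all of them. All 9 genes passed this filter, Sds only through the FD-treated groups. A log2 change on this scale understates the change of low genes. With FD 7 of the 9 genes rose, Kynu fell and Haao was not called, where 41.1% of all genes tested were called in this comparison (11.2% higher and 29.9% lower). Replicates of FD and Mock did not overlap for 7 of the 9 genes and for 48.0% of all genes. The median log2 change of the 9 was 0.61 and that of all genes −0.15. In bulk RNA, fewer expressing cells and less RNA per cell cannot be told apart.

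With insulin on top of FD, 3 of the 9 genes fell (Tdo2, Aass and Fah) and none rose, where 14.5% of all genes were called (10.2% higher and 4.35% lower). With manganese on top of FD, 5 fell (Tdo2, Kynu, Aass, Hgd and Fah) and none rose, where 15.1% were called (7.22% higher and 7.90% lower). These 2 comparisons share the FD libraries, so their lists are not independent of each other. Compared directly, FDMn and FDI differed for Tdo2, higher with manganese, and Kynu, lower with manganese, where 17.6% of all genes were called (5.68% higher and 11.9% lower). A fit of only these 2 groups called 4 of the 9, with Hpd and Hal also higher with manganese (adjusted p = 0.0352 and 0.0437), where it called 2385 of all genes tested, 779 higher and 1606 lower. Manganese was present for the 16 h and insulin from 1 h before FD, so the agent and the length of exposure cannot be told apart. Against Mock, FDI was called for 5 of the 9 genes, 4 higher and 1 lower, where 38.3% of all genes were called (12.9% higher and 25.4% lower). With median-of-ratios scaling the split over all genes in this comparison turned from 1488 higher and 2928 lower to 2161 and 1995. Kynu, the gene called lower, then missed the threshold (log2 change −0.32, adjusted p = 0.0588, against −0.43 and 0.0125), and Hgd was called higher (0.50, adjusted p = 0.0362). FDMn was called for 6, 5 higher and 1 lower, where 42.7% were called (12% higher and 30.6% lower). The same scaling turned the split over all genes from 1390 higher and 3535 lower to 2129 and 2018.

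**Figure D2:**
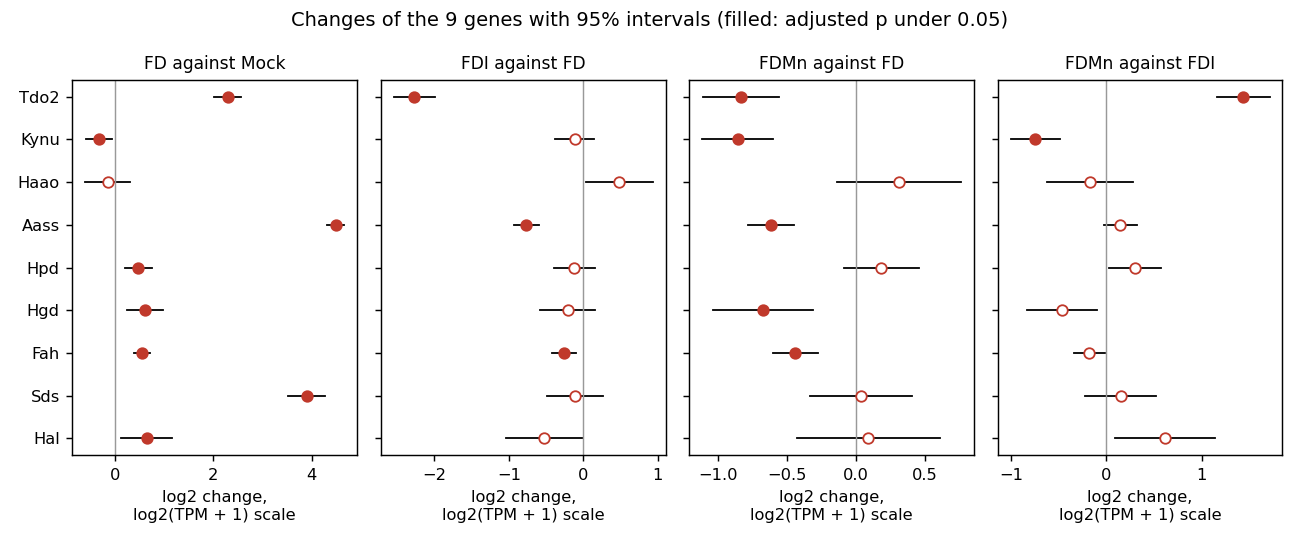
Log2 change of each gene with its 95% interval, on the log2(TPM + 1) scale, in 4 comparisons; filled points are called and open points are not, and each panel has its own axis range. Sds has a large change with FD and open points near 0 with insulin and manganese, while Tdo2 is filled in all 4 panels.

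Tdo2, Aass and Fah were the genes called in all 3 of these main comparisons, and for Aass and Fah the RefSeq promoter window (GRCm38.p6) is shown to display the sequence next to the start site of genes that moved in the same directions. Only the 250 bases before the start site are printed, 5′ to 3′ on the gene's strand. The Aass stretch is chr6:23132987-23133236 and the Fah stretch chr7:84605943-84606192, both on the minus strand and free of annotated exons in GENCODE M21. The Fah stretch lies inside the annotated span of Fah, which runs to 84606722, and the Aass stretch lies outside that of Aass. Capitals mark TGACG, the core repeat of the cAMP response element.
Aass: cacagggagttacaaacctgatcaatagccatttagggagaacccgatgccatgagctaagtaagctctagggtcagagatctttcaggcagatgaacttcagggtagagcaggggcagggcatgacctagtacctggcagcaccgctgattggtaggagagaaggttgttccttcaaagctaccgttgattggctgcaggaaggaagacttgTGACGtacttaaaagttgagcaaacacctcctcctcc
Fah: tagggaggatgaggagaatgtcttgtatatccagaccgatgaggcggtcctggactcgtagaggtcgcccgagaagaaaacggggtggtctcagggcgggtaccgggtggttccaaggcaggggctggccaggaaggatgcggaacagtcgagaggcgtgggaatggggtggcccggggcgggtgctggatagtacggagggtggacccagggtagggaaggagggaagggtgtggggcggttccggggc

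The table of promoter windows holds 7 of the 9 genes, all but Kynu and Sds. Both strands of each 300-base window were searched for the cAMP response element TGACGTCA (present in 1.79% of the 32851 windows), its core TGACG (20.8%), the palindromic glucocorticoid response element (0.00913%), its arm AGAACA (19.0%), the FOXO motif GTAAACA (3.65%) and the amino acid response motif TGATGNAA (3.97%). The core and the arm also match inside their full motifs. Aass held TGACG starting 37 bases before its start site, and Haao held the glucocorticoid arm, on the opposite strand, starting 164 bases before. No other match was found in the 7 windows, that of Tdo2 included. The 250 bases before the start site overlapped annotated exons for Tdo2 (2), Haao (2) and Hpd (1). A match is a description of letters and not a measured binding site.

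In the tryptophan branch, Tdo2 (chromosome 3, 81957090 to 81976202 on GRCm38, protein-coding) had 21.97, 15.8 and 21.8 TPM in the Mock libraries and 110, 91.9 and 99.7 TPM in the FD libraries. All FD libraries thus lay above all Mock libraries, by 5.06-fold in the mean (log2 change 2.29 ± 0.13, SE, adjusted p = 3.46e-08). Insulin brought Tdo2 to 18.6, 23.0 and 18.6 TPM, below every FD library and within the range of the Mock libraries apart from 1 library just above it. The mean in FDI was 20.0% of that in FD (log2 change −2.27 ± 0.13, adjusted p = 5.95e-07). Between FDI and Mock the log2 change of Tdo2 was 0.02 with a 95% interval from −0.25 to 0.30 (adjusted p = 0.907). With manganese the libraries were at 57.8, 58.0 and 51.6 TPM, between the FD and Mock libraries without overlap with either. That mean was 55.5% of the FD mean (log2 change −0.84 ± 0.13, adjusted p = 0.000969) and 2.81-fold the Mock mean (adjusted p = 2.06e-06). The direct comparison put Tdo2 2.78-fold higher with manganese than with insulin (log2 change 1.44 ± 0.13, adjusted p = 1.68e-05). The order of levels was therefore FD, FDMn, then FDI and Mock, which did not differ beyond their spread.

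Kynu (chromosome 2, 43555329 to 43682715) followed another order, with Mock highest and FDMn lowest. Its Mock libraries had 23.5, 24.5 and 21.8 TPM and its FD libraries 18.0, 21.1 and 16.6 TPM, which is lower in all FD libraries by a small margin. The log2 change was −0.32 ± 0.12 (adjusted p = 0.0490). This call was lost under 12 of 15 alternative settings, among them median-of-ratios scaling (log2 change −0.16, adjusted p = 0.345), the replicate block (adjusted p = 0.0723), and the removal of any single library except FD replicate 2 (log2 change from −0.36 to −0.24 and adjusted p from 0.0580 to 0.157 where lost). With insulin the level was 17.0, 18.0 and 15.8 TPM and overlapped FD (−0.12 ± 0.12, adjusted p = 0.571). With manganese it was 10.3, 8.02 and 11.1 TPM, below every library of the other groups. Kynu fell with manganese against FD (−0.86 ± 0.12, adjusted p = 0.000537), and was also lower than with insulin (−0.74 ± 0.12, adjusted p = 0.00118) and than in Mock (−1.18 ± 0.12, adjusted p = 8.06e-06). The summed macrophage markers, nearly all of them Cd68, were higher with manganese. The part of other cells in the Kynu change was not tested.

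Haao (chromosome 17, 83831156 to 83847963) was not called in any of the 6 comparisons. Its libraries ranged from 7.33 to 10.7 TPM (Mock), 6.91 to 11.3 (FD), 9.23 to 14.6 (FDI) and 8.84 to 12.4 (FDMn), with overlap between all groups. The log2 change with FD was −0.14 (95% interval −0.59 to 0.31, adjusted p = 0.611), and its sign turned under median-of-ratios scaling. The highest group mean, 12.2 ± 2.73 TPM with insulin, was 1.43-fold that in FD (log2 change 0.48 ± 0.21, adjusted p = 0.146).

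Of 6 further genes of tryptophan catabolism chosen as pathway partners, 5 passed the filter. Acmsd, which directs the pathway toward oxidation and away from NAD, rose with FD from 9.69 ± 1.31 to 46.9 ± 5.08 TPM (log2 change 2.16 ± 0.11, adjusted p = 1.19e-08). It fell with insulin to 22.7 ± 1.21 TPM (−1.01 ± 0.11, adjusted p = 6.37e-05) and with manganese to 27.8 ± 2.25 TPM (−0.73 ± 0.11, adjusted p = 0.000721). Unlike Tdo2, Acmsd remained above Mock with insulin (log2 change 1.15, adjusted p = 3.96e-06). Afmid, which releases kynurenine from its formyl form, fell with FD from 10.7 ± 0.687 to 8.47 ± 0.455 TPM. Its log2 change was −0.30 ± 0.10 (adjusted p = 0.0342), where the median of all genes was −0.15. Qprt, which uses quinolinate for NAD synthesis, fell with manganese from 27.1 ± 1.24 to 20.8 ± 0.330 TPM (adjusted p = 0.0131). Kmo, which hydroxylates kynurenine and is named here after its values were seen, fell with manganese from 7.27 ± 1.81 to 4.19 ± 0.992 TPM (adjusted p = 0.0180). Qprt and Kmo were also lower with manganese than with insulin (adjusted p = 0.00694 and 0.0439). Ido1, the extrahepatic counterpart of Tdo2, stayed below the filter at 0 to 0.839 TPM.

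The lysine gene Aass (chromosome 6, 23072173 to 23132986) had the largest log2 change with FD among the 9 genes on the log2(TPM + 1) scale. With a pseudocount of 0.1 the change of Sds was larger (4.93, against 4.66 for Aass). Aass was at 6.28, 6.04 and 7.49 TPM in Mock and at 179, 163 and 164 TPM in FD, a 25.6-fold difference (log2 change 4.48 ± 0.08, adjusted p = 1.19e-12). With insulin its libraries had 93.7, 104 and 99.1 TPM, all below FD and all far above Mock. The insulin mean was 58.5% of the FD mean (−0.77 ± 0.08, adjusted p = 5.29e-05). Manganese gave 105, 113 and 111 TPM, which is 64.9% of the FD mean (−0.62 ± 0.08, adjusted p = 0.000314). FDI remained 15.0-fold and FDMn 16.6-fold above Mock (adjusted p = 7.93e-12 and 5.14e-12). The manganese libraries lay just above the insulin libraries, with a log2 change of 0.15 (95% interval −0.02 to 0.32, adjusted p = 0.221), which quantile normalization turned into a call (0.25, adjusted p = 0.0430).

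None of the 6 tested lysine partners was called with FD, where their median log2 change was −0.02, or with insulin. Thus Aass rose while none of these genes passed the test. With manganese 2 of the 6 fell. Gcdh, glutaryl-CoA dehydrogenase, acts after the lysine and tryptophan routes have met. It went from 46.3 ± 4.41 TPM in FD to 29.1 ± 2.06 TPM (log2 change −0.65 ± 0.08, adjusted p = 0.000266). Gcdh was also lower than in Mock (45.2 ± 2.16 TPM, adjusted p = 6.21e-05) and than with insulin (42.1 ± 1.29 TPM, adjusted p = 0.000940). Aldh7a1, which acts after Aass, went from 97.0 ± 11.7 to 74.9 ± 3.31 TPM (adjusted p = 0.0150). A seventh gene of the list, Hykk, stayed below the filter.

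The tyrosine genes Hpd, Hgd and Fah all rose with FD, by 1.42-fold to 1.603-fold. For Fah (chromosome 7, 84585159 to 84606722) the libraries were at 40.9, 42.0 and 48.5 TPM in Mock and at 66.6, 64.8 and 63.7 TPM in FD. The groups were separate (log2 change 0.56 ± 0.08, adjusted p = 8.40e-05). Fah had 53.3, 50.8 and 58.5 TPM with insulin, between the FD and Mock libraries (−0.26 ± 0.08 against FD, adjusted p = 0.0376), a call that was lost under 7 of 15 alternatives. Among these were the removal of FDI replicate 1 (adjusted p = 0.102), FDI replicate 2 (0.129), FD replicate 1 (0.104) or FD replicate 2 (0.0801), with the change between −0.26 and −0.22. Fah had 45.9, 48.7 and 48.5 TPM with manganese, lower than FD (−0.44 ± 0.08, adjusted p = 0.00220) and overlapping Mock (0.12, 95% interval −0.04 to 0.29, adjusted p = 0.211). After median-of-ratios scaling Fah with manganese was called above Mock (log2 change 0.28, adjusted p = 0.0102).

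Hgd (chromosome 16, 37580153 to 37632020) was at 6.05, 7.23 and 8.08 TPM in Mock and at 9.90, 12.02 and 12.3 TPM in FD, again without overlap (log2 change 0.61 ± 0.17, adjusted p = 0.0111). With manganese it fell to 5.10, 8.23 and 7.26 TPM, all under the FD libraries and around those of Mock (−0.67 ± 0.17, adjusted p = 0.0182). That call was lost without FDMn replicate 1 (log2 change −0.50, adjusted p = 0.0722) or FD replicate 2 (−0.64, adjusted p = 0.0546). With insulin Hgd was at 11.6, 9.18 and 8.46 TPM, overlapping FD (−0.21 ± 0.17, adjusted p = 0.447). The manganese libraries lay below the insulin libraries, but the difference did not pass (−0.46 ± 0.17, adjusted p = 0.0777).

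Hpd (chromosome 5, 123171807 to 123182727) was at 27.4, 20.8 and 24.6 TPM in Mock and at 28.4, 34.8 and 39.9 TPM in FD (log2 change 0.48 ± 0.13, adjusted p = 0.00879). FD replicate 1 was only slightly above the highest Mock library. Unlike its 2 partners in the branch, Hpd had its highest mean with manganese, 38.9 ± 2.34 TPM, a log2 change of 0.18 against FD (95% interval −0.09 to 0.46, adjusted p = 0.358). With insulin it was at 31.3 ± 2.66 TPM (−0.12, 95% interval −0.39 to 0.15, adjusted p = 0.582). Hpd was higher than in Mock with manganese (log2 change 0.67 ± 0.13, adjusted p = 0.00109) and with insulin (0.36 ± 0.13, adjusted p = 0.0386), the latter call being lost under 7 of 15 alternatives, with adjusted p from 0.0724 to 0.145 without Mock replicate 2 or 3 or FDI replicate 2 or 3 and 0.0529 with the replicate block. The span of Hpd overlaps that of Psmd9 on the opposite strand, and use of strand in the quantification is not given in the sources used here. Whether exons of the 2 genes overlap was not examined, so it is not known whether any reads were shared. Psmd9 was at 19.5 ± 3.82 TPM in Mock, 29.1 ± 4.38 in FD, 29.7 ± 0.855 in FDI and 27.9 ± 0.514 in FDMn, higher in FD than in Mock as Hpd was. Its part in the Hpd result was not tested.

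Of 5 partners of the tyrosine branch, all tested, 1 rose and 1 fell with FD, and 1 rose with each agent. Gch1, which controls synthesis of the cofactor tetrahydrobiopterin, rose from 32.9 ± 1.86 TPM in FD to 42.4 ± 3.84 TPM with insulin (adjusted p = 0.00681) and to 46.1 ± 1.42 TPM with manganese (adjusted p = 0.00113). The call with insulin was lost in a fit of only FDI and FD, where 0 partners were called higher. Of the genes that recycle this cofactor, Qdpr rose with FD from 32.0 ± 1.86 to 39.1 ± 3.42 TPM (adjusted p = 0.0325), while Pcbd1 fell from 100.0 ± 1.29 to 84.3 ± 9.08 TPM (adjusted p = 0.0328).

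Sds (chromosome 5, 120476526 to 120483932) was nearly silent in Mock at 0.792, 0.602 and 0.730 TPM and reached 33.5, 18.1 and 23.9 TPM in FD. The ratio of means was 35.5, the highest of the 9 genes, with a log2 change of 3.89 ± 0.17 (adjusted p = 4.65e-09) on a scale that compresses low values. With a pseudocount of 0.1 in place of 1 the log2 change was 4.93, and with 5 it was 2.37. Insulin left 22.8, 19.9 and 25.0 TPM and manganese 24.9, 26.4 and 24.0 TPM, all within the wide range of the FD libraries. The changes against FD were −0.11 with insulin (95% interval −0.48 to 0.26, adjusted p = 0.715) and 0.04 with manganese (−0.33 to 0.41, adjusted p = 0.909). The 3 FD libraries were the most spread of the groups for Sds, and the intervals leave room for modest changes. FDI and FDMn were 31.9-fold and 35.4-fold above Mock (adjusted p = 5.57e-09 and 4.24e-09). The Sds span overlaps Plbd2 on the opposite strand, which was at 50.7 to 66.0 TPM in all libraries.

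Sds and Aass, the 2 listed genes with the largest rise, thus differed in what followed: Aass was lower than FD with both agents, and no difference from FD was called for Sds with either. Whether the 2 genes differ in this respect was not tested. Of 7 tested partners of serine, threonine and glycine breakdown, Gldc, the decarboxylase of the glycine cleavage system, rose with FD from 17.1 ± 0.848 to 67.7 ± 2.56 TPM (log2 change 1.93 ± 0.06, adjusted p = 2.23e-10). It was at 64.3 ± 3.14 TPM with insulin and fell slightly with manganese to 58.0 ± 1.19 TPM (−0.22 ± 0.06, adjusted p = 0.0334). Sdsl, a paralog of Sds that adjoins it on chromosome 5, rose with FD from 20.7 ± 0.882 to 34.6 ± 2.17 TPM (adjusted p = 0.000200). Amt, Gcsh and Srr were lower in FD than in Mock; Amt and Gcsh encode other parts of the glycine cleavage system and, named after their values were seen, went from 15.3 ± 0.831 to 10.7 ± 0.941 TPM and from 62.8 ± 1.64 to 46.3 ± 4.86 TPM (adjusted p = 0.00480 and 0.000430). Srr, serine racemase, rose with manganese from 18.1 ± 0.519 to 22.7 ± 0.602 TPM (adjusted p = 0.0357). Tdh was listed at 0 in all libraries.

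Hal (chromosome 10, 93488768 to 93519304) was low throughout. It had 2.91, 1.99 and 1.29 TPM in Mock and 2.82, 5.36 and 3.23 TPM in FD, so that the lowest FD library was under the highest Mock library. The log2 change was 0.65 ± 0.24 (adjusted p = 0.0467), and the call was lost under 7 of 14 alternatives. Without FD replicate 2, the highest library, the change was 0.43 (adjusted p = 0.179). Removal of FD replicate 3 (0.72, adjusted p = 0.0570), Mock replicate 2 (0.65, adjusted p = 0.0922) or Mock replicate 3 (0.45, adjusted p = 0.175) and the replicate block (adjusted p = 0.0673) also ended the call. With insulin Hal was at 2.73, 1.58 and 2.59 TPM, under all FD libraries without passing the test (−0.53 ± 0.24, adjusted p = 0.169). With manganese it was at 4.27, 3.30 and 4.48 TPM, above all Mock libraries (log2 change 0.74 ± 0.24, adjusted p = 0.0256), a call lost under 5 of 14 alternatives, among them the removal of FDMn replicate 1 or 3 or Mock replicate 2 or 3 (log2 change from 0.54 to 0.74, adjusted p from 0.0562 to 0.104). Of the 3 enzymes that follow Hal, Ftcd, which passes the carbon of histidine to folate, rose with FD from 26.8 ± 1.40 to 40.9 ± 3.58 TPM (log2 change 0.59 ± 0.08, adjusted p = 8.27e-05). Ftcd was at 44.7 ± 2.13 TPM with insulin and fell with manganese to 29.6 ± 1.66 TPM (−0.45 ± 0.08 against FD, adjusted p = 0.00251; −0.58 ± 0.08 against FDI, adjusted p = 0.000405). Uroc1 and Amdhd1, the steps between, were not called with FD, insulin or manganese.

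**Figure D3:**
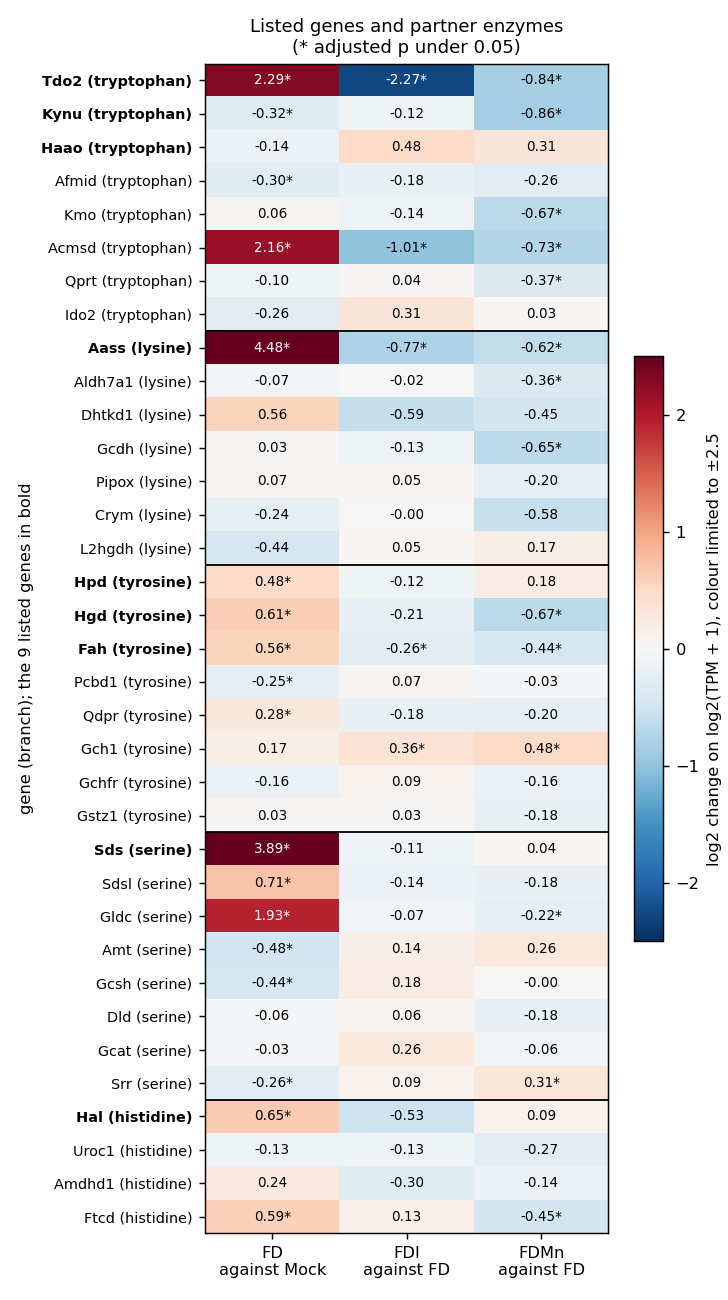
Log2 change on the log2(TPM + 1) scale of the 9 listed genes (bold) and 26 partner enzymes, by branch, in 3 comparisons, with asterisks for calls. In the tryptophan and lysine branches only some steps are dark red with FD (Tdo2, Acmsd and Aass).

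Over the 29 partners reported 26 were tested. With FD 5 rose and 5 fell (median log2 change −0.04), where 41.1% of all genes were called (11.2% higher and 29.9% lower). With insulin 1 rose and 1 fell (median 0.03, all genes 0.04), where 14.5% were called (10.2% higher and 4.35% lower). With manganese 2 rose and 7 fell (median −0.19, all genes 0.00), where 15.1% were called (7.22% higher and 7.90% lower). Without the filter on low values 4 rose and 2 fell with FD, and without FD replicate 1 manganese gave 1 that rose and 4 that fell. Scaling bore on the comparisons with Mock: median-of-ratios scaling moved the median of all genes from −0.15 to −0.01 for FD, and the split of calls over all genes from 1296 higher and 3447 lower to 2054 and 1982. The 9 genes then gave 7 higher and none lower, and the partners 6 higher and 2 lower. Of the 5 partners called lower with FD (Afmid, Pcbd1, Amt, Gcsh and Srr), at most 2 thus kept that call under this scaling. For FDI against FD the split over all genes went from 1172 higher and 502 lower to 847 and 696, for FDMn against FDI from 656 and 1375 to 820 and 1005, and the same 3 and 2 listed genes were called. In FDMn against Mock the partners went from 4 higher and 11 lower to 5 and 7.

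**Figure D4:**
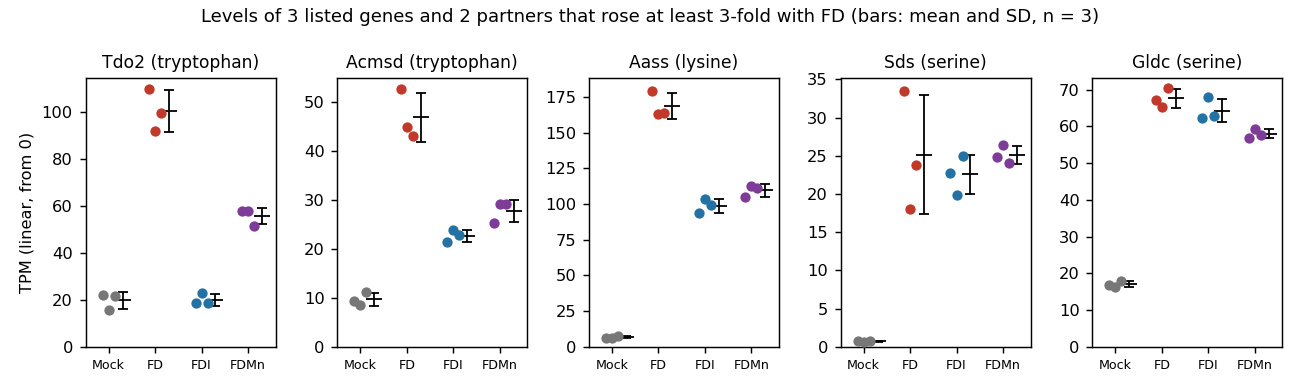
Levels (TPM, linear axis from 0) of 3 listed genes and 2 partners that rose at least 3-fold with FD, with points for libraries and bars for the mean and SD of 3. Tdo2, Acmsd and Aass are lower with insulin and with manganese than with FD, and Tdo2 alone of the 5 overlaps its Mock libraries with insulin.

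The genes most like each member were taken as those with the highest Pearson correlation of log2(TPM + 1) over the 12 libraries, which share 4 groups. Left out of this ranking were the 9 listed genes themselves and, by symbol, predicted genes, pseudogenes and genes with clone or accession names. Aass was closest to Pck1 (r = 0.999), Klf15 (0.998) and Tat (0.998), Sds to Adh1 (0.996), Fgf1 (0.996) and Ppara (0.995), and Kynu to Reep6 (0.974), Klf5 (0.965) and Hadh (0.962). Tdo2 was closest to Arrdc3 (0.967), which had 4.13 ± 0.387 TPM in Mock, 21.2 ± 2.07 in FD, 5.68 ± 0.474 in FDI and 11.7 ± 0.416 in FDMn, and then to Rsrp1 (0.958) and Khnyn (0.949). Fah was closest to Ablim3 (0.958), Aldh6a1 (0.955) and Fmo5 (0.948), and Hpd to Paox (0.929), Mapk1ip1 (0.920) and Smg1 (0.912). The likeness was weaker for Hgd (Chn2, 0.896; P4hb, 0.893; Chek1, 0.868), Hal (Slc10a2, 0.854; Ahsa2, 0.817; Nrbp2, 0.816) and Haao (Mx1, 0.845; Slc23a2, 0.829; Zfp180, 0.821). Mx1 lay near the filter level, with group means from 0.265 TPM in FD to 1.07 TPM in FDI, and Haao itself was called in no comparison. Among the 9 genes themselves r ran from −0.78 between Hpd and Kynu to 0.98 between Sds and Aass.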

How the data were processed

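The authors deposited gene-level TPM for the 12 libraries, made with kallisto 0.44.0 on GRCm38.p6 per the submitters' processing notes, which also name DESeq2 without its role. Annotation, filters and strand use: not given in the sources used here. Columns were matched to samples by library name, and none was left unused. TPM hold no read depth, so no counting interval is given. Values were analysed as log2(TPM + 1) after keeping 11544 genes with at least 1 TPM in at least 3 libraries, with limma 3.58.1 in R 4.3.3 (1 term per group over all 12 libraries, trend in the prior variance, two-sided, Benjamini-Hochberg over all genes kept). The fit was tested on simulated data. Gene positions are from GENCODE M21 (GRCm38; 99.6% of symbols matched) and promoter windows from RefSeq (GRCm38.p6). The members and lists were chosen with earlier results of these data known. All 9 members are named, and 1 gene of the partner list is not reported here and is left out of the partner counts. Partners are named when called with FD, insulin or manganese, at most 2 per branch and comparison by adjusted p among those reported, and genes outside this are said to be. Alternatives covered pseudocount, filter, scaling, trend, groups fitted, the replicate block and each replicate left out.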

Additional observations from a re-analysis of the deposited data

How the results depend on the processing

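Of 54 results for the 9 genes (9 in each of 6 comparisons), 29 were called. Of these, 22 were called under every alternative run, 7 were lost under at least 1, and none changed sign. Sign changes occurred 11 times, all in uncalled values. Median-of-ratios scaling gave 0.0037 for Haao in FD against Mock and 0.0806 for Hgd in FDMn against Mock, where quantile normalization gave 0.0795. With 1 replicate left out the log2 change ran from −0.32 to 0.11 for Sds in FDI against FD, −0.17 to 0.26 for Sds and −0.057 to 0.31 for Hal in FDMn against FD, −0.13 to 0.10 for Tdo2 and −0.070 to 0.31 for Hal in FDI against Mock, and −0.19 to 0.11 for Hgd in FDMn against Mock. Without a filter on low values, 6 partners were called in FD against Mock. A fit of only the 2 groups gave 985 genes and 1 partner in FDI against FD, and 2385 genes, 4 members and 8 partners in FDMn against FDI. Leaving out 1 replicate gave 1092 (without FDI replicate 3) to 2121 genes in FDI against FD, 1018 (without FDMn replicate 1) to 2025 genes and 5 (without FD replicate 1) to 10 partners in FDMn against FD, and 1351 (without FDMn replicate 1) to 1456 genes and 3 to 6 partners in FDMn against FDI; without FDMn replicate 2, FDMn against FD gave 1163 genes. The cause was not tested. Same-numbered samples did not deviate together (r from −0.10 to 0.07 over 18 pairs, 5 of 12 libraries closest to their own number). No pairing by number was thus seen, which does not show that same-numbered samples were handled apart. With the replicate block 6 rather than 8 members were called in FD against Mock (4660 genes), without Kynu and Hal. In FDI against Mock 4 rather than 5 were called (4259 genes), without Hpd. In the other 4 comparisons the number of members called was the same. Over all genes these gave 1491 calls (FDI against FD), 1583 (FDMn against FD), 1829 (FDMn against FDI) and 4819 (FDMn against Mock).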
